A study of Mus musculus with 6 samples.

Results

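The CC chemokines described here are Ccl2, Ccl3, Ccl5, Ccl6, Ccl7, Ccl8, Ccl9, Ccl11 and Ccl20. They were taken by symbol, and each of the 9 matched 1 row among 55385 mouse genes in the deposited count table. PDVC57, an established line of mouse squamous carcinoma of keratinocyte origin, was profiled by bulk RNA sequencing in 6 libraries. There were 3 libraries with the genotype Sox2 KO (knockout) and 3 with Sox2 overexpression, and the series' design text states that cells low or high in the stem cell transcription factor Sox2 were recovered from grafted tumours. The labels give no age, host strain, clone number, sort gate or construct promoter, and no unmodified PDVC57 library was among the samples analysed here.

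Chemokines are small secreted proteins that bind G protein-coupled receptors and set the direction in which white blood cells move. The CC family is named for adjacent cysteines near the start of the mature protein. In skin and skin tumours its members are made by keratinocytes, fibroblasts, endothelium and infiltrating white blood cells, often after inflammatory signals that act through NF-kB. Ccl2 and Ccl7 act through Ccr2 on monocytes, Ccl11 (eotaxin) through Ccr3 on eosinophils, Ccl3, Ccl5, Ccl6 and Ccl9 through Ccr1, mouse Ccl8 through Ccr8, and Ccl20 through Ccr6. The design text asks which programmes downstream of Sox2 act on neutrophils, and these genes are one class of secreted signal to which that question applies.

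All members except Ccl20 lie on chromosome 11 (GENCODE M21, GRCm38), in neighbouring groups. Ccl2 (82035571 to 82037453), Ccl7 (82045712 to 82047525), Ccl11 (82057823 to 82062955) and Ccl8 (82115185 to 82116799) are on the plus strand within 81.2 kb. Ccl5 (83525778 to 83530518), Ccl9 (83572919 to 83578636), Ccl6 (83587882 to 83593087) and Ccl3 (83647844 to 83649355) are on the minus strand within 124 kb. Ccl20 (83116766 to 83119167, plus strand) lies alone on chromosome 1. All 9 are protein-coding, and none of their exons overlaps an exon of another annotated gene. Family members resemble one another in protein sequence, but no stretch of 31 bases in any member's annotated transcripts occurred in a transcript of another CC chemokine gene. Of the 9, Ccl9 held the largest share of 31-base stretches found in some other gene, 3.75%.

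RefSeq promoter sequence (GRCm38.p6) was at hand for 5 members, Ccl3, Ccl6, Ccl8, Ccl9 and Ccl20, and was not matched for Ccl2, Ccl5, Ccl7 and Ccl11. The 250 bases before the annotated start were searched on both strands. The sequences of Ccl8, Ccl9 and Ccl20 are shown because they were the ones with a match to the kappa-B consensus (the NF-kB site), the AP-1 site (TGANTCA) or a SOX core (AACAAAG), all of which are in capitals. Ccl8 is at chr11:82114935-82115184 on the plus strand, Ccl9 at chr11:83578637-83578886 on the minus strand, and Ccl20 at chr1:83116516-83116765 on the plus strand.
Ccl8: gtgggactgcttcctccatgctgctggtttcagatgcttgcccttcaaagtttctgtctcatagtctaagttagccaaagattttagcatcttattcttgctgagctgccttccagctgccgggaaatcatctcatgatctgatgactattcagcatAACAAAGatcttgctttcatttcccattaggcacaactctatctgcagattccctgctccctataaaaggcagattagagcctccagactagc
Ccl9: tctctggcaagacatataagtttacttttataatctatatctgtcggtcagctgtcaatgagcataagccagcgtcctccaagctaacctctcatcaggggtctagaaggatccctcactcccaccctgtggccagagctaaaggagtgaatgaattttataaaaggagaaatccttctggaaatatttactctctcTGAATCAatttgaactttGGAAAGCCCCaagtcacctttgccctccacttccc
Ccl20: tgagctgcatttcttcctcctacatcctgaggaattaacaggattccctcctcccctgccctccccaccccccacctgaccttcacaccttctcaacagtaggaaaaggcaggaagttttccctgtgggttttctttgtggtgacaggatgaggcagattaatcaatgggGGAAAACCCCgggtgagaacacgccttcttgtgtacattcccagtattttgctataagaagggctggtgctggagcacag
Ccl8 held the SOX core, beginning 93 bases before the start, and such a core was found in 5.03% of 32851 promoters of this length. Ccl9 held an AP-1 site at 53 bases and a kappa-B match at 35 bases before the start. Ccl20 held a kappa-B match at 80 bases before the start. The kappa-B consensus occurred in 7.25% and the AP-1 site in 6.75% of all promoters. A C/EBP-type pattern (TTNNGNAA, in 36.8% of promoters) matched Ccl3 at 100 bases and Ccl9 at 75 and 38 bases before the start, and the last of these overlaps the kappa-B match of Ccl9. TATAAA (in 12.4% of promoters) matched Ccl8 at 32 bases and Ccl9 at 92, 94 and 224 bases before the start. A STAT-type pattern (TTCNNNGAA, 7.02%) was not among the letters of these 5 windows. These are descriptions of the letters and not measured binding sites.

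Library totals ranged from 31247976 to 38543221 counts. Sox2 itself had 25 to 49 counts in the knockout libraries and 2566 to 4095 in the overexpression libraries, which is 6.58 on the log2 scale by edgeR (adjusted p = 2.29e-06) and in the direction of the labels. Replicate libraries resembled one another more than libraries of the other group. The labels do not say whether replicates came from separate cultures or tumours, so p-values measure the spread between these libraries. That spread was above counting error in every pair of replicates, with a chi-square per degree of freedom of 37.7 to 105. Whether it came from tumours, cultures or the making of libraries is not given. Knockout replicate 3 stood apart, with the highest sums of T and NK cell, dendritic cell, macrophage and endothelial markers among the knockout libraries. Most of its macrophage sum came from Ptprc, a pan-leukocyte gene. It had the lowest sums of mast cell, B cell and epithelial markers among the knockout libraries. Its epithelial sum was 2343 CPM, against 4518 and 5113 CPM in knockout replicates 1 and 2. For Ccl5, Ccl20, Ccl22, Ccr1, Ccr2 and Ccr7, values are given with and without knockout replicate 3. Marker sums and marker genes are given with it only, also where it held the highest values. Epithelial markers, which define the labelled cell type, were present in all libraries, summing to 2343 to 5113 CPM with knockout and 8538 to 12498 CPM with overexpression. Fibroblast markers summed to 53103 to 80936 CPM with knockout, more than the epithelial markers there, and to 246 to 388 CPM with overexpression.

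The CC chemokines were low with overexpression. Those on chromosome 11 other than Ccl5 were higher in every knockout library than in any overexpression library, while the groups overlapped for Ccl5 and Ccl20. Levels are given as CPM (counts scaled to a common library size), using TMM-scaled library sizes, and a count of 0 allows up to 3 counts, which is at most 0.101 CPM in an overexpression library. Per kb of exon, the 9 members together reached 203 ± 85.5 CPM per kb with knockout and 2.60 ± 0.629 CPM per kb with overexpression (SD, n = 3 each). Of the 9, 8 passed the count filter and were tested with edgeR's quasi-likelihood test across 18504 genes. All of these 8 had an adjusted p under 0.05 and were lower with overexpression, where 18% of tested genes were called in that direction and 31.6% in either. None was called higher, as 13.6% of tested genes were. A log2 fold change at or below -4 was called for 6 of the 8, against 7.12% of tested genes. The groups did not overlap, with overexpression lower, for 7 of the 9 members and for 26.5% of tested genes, and no member had non-overlapping groups the other way, as 24.4% of tested genes did. Only Ccl2 and Ccl5 exceeded the count minimum in every library. The other 6 tested members passed the filter through their knockout libraries alone, so their count describes them and is no independent evidence. The median log2 fold change (overexpression over knockout) of the 8 was -6.30, or -5.61 with Ccl3 at its lower bound, against -0.02 for all tested genes. RNA came from bulk samples, in which fewer cells of a type and less RNA per cell cannot be told apart.

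**Figure D1:**
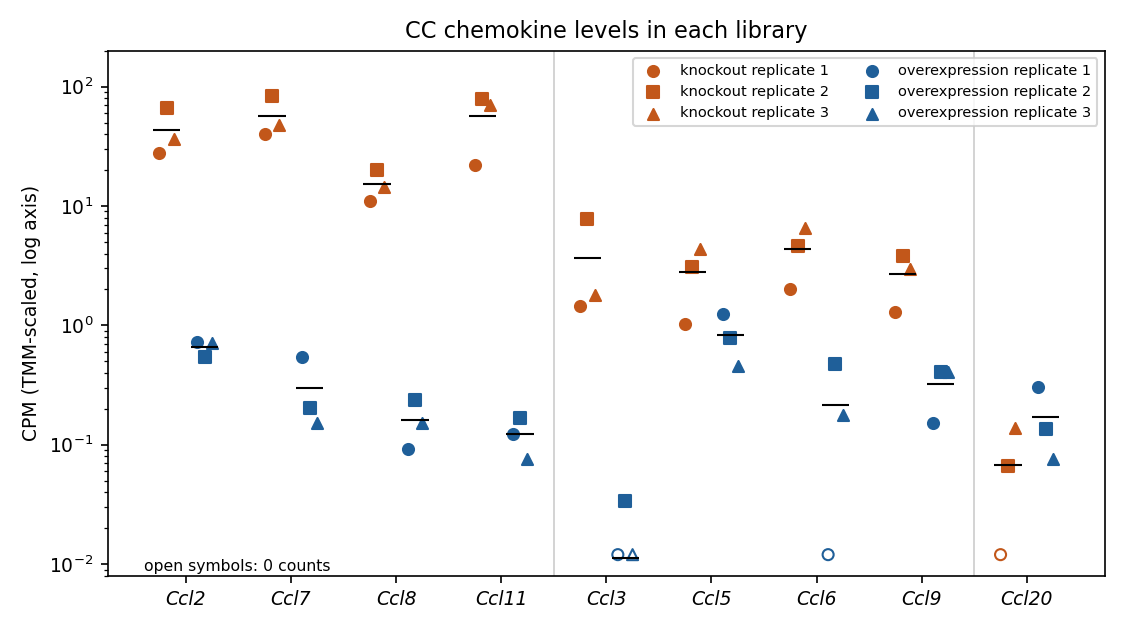
CPM of the 9 CC chemokines (log axis) in each of the 6 libraries, with knockout in orange, overexpression in blue, symbols for replicates and a line at each group's mean. Open symbols stand for 0 counts, and the groups overlap for Ccl5 and Ccl20.

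Ccl2, the main attractant of inflammatory monocytes, had 27.7, 66.8 and 36.7 CPM in knockout replicates 1, 2 and 3, and 0.731, 0.540 and 0.707 CPM in overexpression replicates 1, 2 and 3. Every knockout library was at least 27.7 CPM and no overexpression library reached 1 CPM. Mean levels were 43.7 ± 20.5 and 0.660 ± 0.104 CPM (SD, n = 3 each), a ratio of 66.2. In edgeR this came to -6.03 (log2 fold change, SE 0.40, adjusted p = 9.58e-06).

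Ccl7, which also binds Ccr2, had 40.2, 83.2 and 47.8 CPM with knockout and 0.549, 0.203 and 0.152 CPM with overexpression. Its knockout libraries ranked as those of Ccl2 did, with replicate 2 highest and replicate 1 lowest. The group difference in edgeR was -7.57 (log2 fold change, SE 0.49, adjusted p = 9.14e-06). Overexpression replicate 1 held 18 counts and the others 6 each, and without replicate 1 the overexpression mean went from 0.301 to 0.177 CPM and the log2 fold change to -8.31.

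Ccl8, a ligand of Ccr8 in the mouse, had 10.9, 20.1 and 14.6 CPM with knockout. Overexpression libraries held 3, 7 and 6 counts, or 0.0914, 0.236 and 0.152 CPM. The means differed by a ratio of 95.2, which edgeR fitted as -6.56 on the log2 scale (SE 0.42, adjusted p = 7.99e-06). Its spread with knockout, 30.4% of the mean, was the lowest of the 9 members.

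Ccl11, the eosinophil attractant, had 22.2, 78.5 and 69.99 CPM with knockout. It had 4, 5 and 3 counts with overexpression, a mean of 0.122 ± 0.0466 CPM (SD, n = 3). Among members with more than 3 counts in some overexpression library it had the largest ratio of means, 466, fitted by edgeR as -8.86 on the log2 scale (SE 0.64, adjusted p = 1.62e-05). The size rests on at most 5 counts in an overexpression library, and the 95% interval of the log2 fold change ran from -10.33 to -7.40.

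Ccl3 (MIP-1 alpha), made mostly by activated white blood cells, had 1.46, 7.73 and 1.81 CPM with knockout. Knockout replicate 2 held 234 of its counts, against 50 and 66 in the other knockout libraries. Overexpression libraries had 0, 1 and 0 counts. By its knockout mean over the floor of 3 counts in the least deep overexpression library, Ccl3 was at least 36.2-fold lower with overexpression (adjusted p = 0.000807, edgeR). The other bounds below also use the knockout mean and not the lowest knockout library. Without knockout replicate 2, the knockout mean of Ccl3 was 1.64 CPM in place of 3.67 CPM, which makes its bound smaller. The adjusted p was then 0.00087 (edgeR).

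Ccl6, a Ccr1 ligand expressed by myeloid cells, had 2.02, 4.59 and 6.49 CPM with knockout and 0, 0.473 and 0.177 CPM with overexpression. Here knockout replicate 3, and not replicate 2, was highest. The group difference in edgeR was -4.35 (log2 fold change, SE 0.87, adjusted p = 0.00548). The overexpression mean of 0.217 CPM came mainly from 14 counts in replicate 2 and was 0.0884 CPM without it, with a log2 fold change of -5.47, while leaving out overexpression replicate 1 gave -3.74.

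Ccl9, a close relative of Ccl6 that also binds Ccr1, had 1.29, 3.80 and 2.98 CPM with knockout and 0.152, 0.405 and 0.404 CPM with overexpression. In edgeR this came to -3.05 (log2 fold change, SE 0.55, adjusted p = 0.00321). All knockout libraries lay above all overexpression libraries, by a ratio of means of 8.39.

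Ccl5 (RANTES), an attractant of T cells and monocytes, was the tested member with the smallest change. It had 1.02, 3.07 and 4.38 CPM with knockout and 1.25, 0.777 and 0.455 CPM with overexpression. Overexpression replicate 1 was above knockout replicate 1, so the groups overlapped. Its fitted log2 fold change, -1.77, had a 95% interval from -3.10 to -0.45 (adjusted p = 0.0473, edgeR). This call was lost without knockout replicate 2 (adjusted p = 0.112) or 3 (0.134) and without overexpression replicate 2 (0.138) or 3 (0.137), and adjusted p-values over all alternatives ranged from 3.17e-06 to 0.138. Without knockout replicate 3 its log2 fold change was -1.30.

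Ccl20, which keratinocytes make and which draws Ccr6-bearing dendritic cells and lymphocytes, did not pass the count filter. It had 0, 2 and 5 counts with knockout and 10, 4 and 3 counts with overexpression. These are 0, 0.0661 and 0.137 CPM against 0.305, 0.135 and 0.0758 CPM, with overlapping groups. With the filter removed, edgeR put its change at 1.32 on the log2 scale (adjusted p = 0.534), so a difference was not detectable at this depth. Leaving out 1 library moved either mean by over 1.5 times, to 0.033 CPM without knockout replicate 3 and to 0.105 CPM without overexpression replicate 1.

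Levels of different genes were compared per kb of annotated exon. With knockout the order was Ccl7 at 71.3 ± 28.6, Ccl11 at 52.6 ± 28.1, Ccl2 at 38.4 ± 18.02 and Ccl8 at 29.8 ± 9.07 CPM per kb (SD, n = 3 each). Each of these 4 overlapped its neighbour in that order. The next was Ccl3 at 4.79 ± 4.60 CPM per kb, below every library of Ccl8. Ccl5 followed at 2.94 ± 1.76, Ccl6 at 2.43 ± 1.25 and Ccl9 at 0.883 ± 0.421 CPM per kb, each overlapping the one before it, and Ccl20 was last at 0.0476 ± 0.0482 CPM per kb, below every library of Ccl9. With overexpression, Ccl5 was highest at 0.862 ± 0.416 CPM per kb, followed by Ccl2 at 0.580 ± 0.0914 and Ccl7 at 0.376 ± 0.27, and neighbours overlapped down to Ccl9. Ccl3 had 0, 1 and 0 counts, too few to place it in this order.

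The make-up of the family, taken as each gene's share of the summed level per kb, differed between the groups. Ccl2, Ccl7, Ccl8 and Ccl11 held 96.3, 94.1 and 94.1% of the summed level per kb in knockout replicates 1, 2 and 3. They held 50.8, 50.03 and 60.8% in overexpression replicates 1, 2 and 3. Their sum was 139 times higher with knockout, while that of Ccl3, Ccl5, Ccl6 and Ccl9 was 10.02 times higher. The difference between these 2 ratios was not tested. The shares with overexpression rest on few counts. Ccl8 held 3, 7 and 6, Ccl11 4, 5 and 3, and Ccl7 18, 6 and 6 counts in overexpression replicates 1, 2 and 3.

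**Figure D2:**
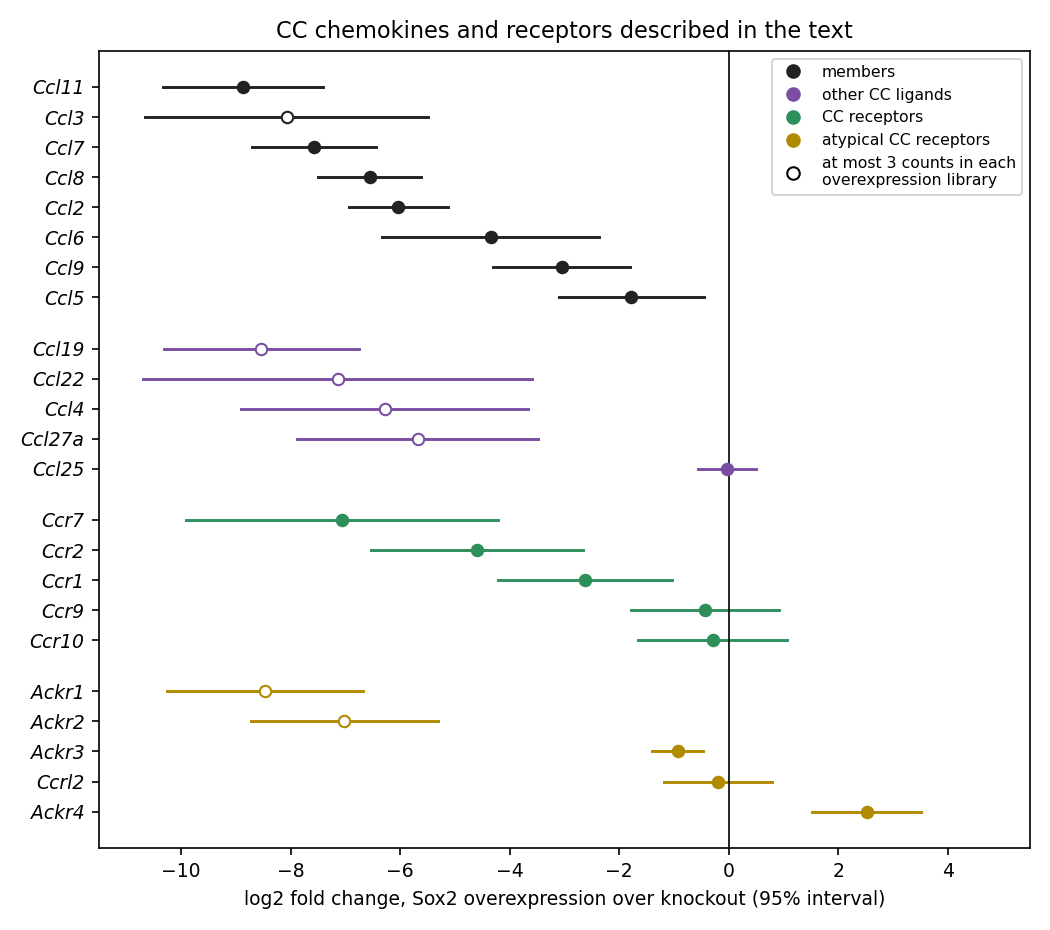
Log2 fold changes (overexpression over knockout) with 95% intervals from the edgeR fit for tested CC chemokines, other CC ligands and the receptors described here. Open points had at most 3 counts in each overexpression library, where the fitted size is no bound, and Ackr4 is the gene to the right of 0 with an interval that does not reach it.

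Other genes of the CC system were taken from lists of ligands and receptors. Of 14 other CC ligands, 13 matched a row and 5 were tested, of which 4 fell and Ccl25 did not pass (log2 fold change -0.02, adjusted p = 0.953, edgeR). All of the 4 had at most 3 counts in each overexpression library and passed the count filter through their knockout libraries alone, so this count is a description, beside the 18% of all tested genes called lower. Ccl19, a Ccr7 ligand of stromal cells, had 87, 214 and 193 counts with knockout and was at least 49-fold lower with overexpression (adjusted p = 6.72e-05, edgeR). Ccl4, the neighbour and relative of Ccl3, had 23, 158 and 74 counts with knockout and was at least 26-fold lower by its knockout mean. Leaving out knockout replicate 2 took that mean from 2.64 to 1.35 CPM, which makes the bound smaller. That library was also highest in Ccl3. Ccl27a, a skin chemokine that binds Ccr10, was at least 16.8-fold lower. Exons of Ccl25, Ccl27a and Ccr9 overlap exons of other genes (Elavl1 for Ccl25, Il11ra1 for Ccl27a, and Slc6a20a, Gm17200 and AC165425.1 for Ccr9), and their counts are less certain for it.

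Ccl22, a dendritic cell product that binds Ccr4, had 878 counts in knockout replicate 3 and 23 and 47 in the other knockout libraries. Dropping replicate 3 took the knockout mean from 8.75 to 1.11 CPM, and its adjusted p of 0.00828 (edgeR) was 0.0563 without overexpression replicate 2, within a range from 5.11e-28 to 0.0563 over the alternatives. Ccl21a, the other main Ccr7 ligand, had 691, 470 and 0 counts with knockout and none with overexpression, and was not tested.

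Of the conventional CC receptors described here, Ccr7, Ccr2 and Ccr1 fell, and Ccr9 and Ccr10 did not pass. Ccr7, Ccr2 and Ccr1 did not reach the count minimum in every overexpression library, and all knockout libraries did. Ccr7, which guides dendritic cells and naive lymphocytes, had 51, 116 and 738 counts with knockout and 2, 4 and 0 with overexpression (log2 fold change -7.06, adjusted p = 0.0029, edgeR). Ccr2, the receptor of Ccl2 and Ccl7, had 89, 129 and 697 counts with knockout and 14, 15 and 6 with overexpression (log2 fold change -4.60, adjusted p = 0.00355, edgeR). Both were highest in knockout replicate 3, and without it the knockout mean of Ccr7 went from 8.51 to 2.66 CPM and that of Ccr2 from 8.65 to 3.43 CPM. The log2 fold changes without that library were -5.37 for Ccr7 and -3.26 for Ccr2. Ccr1, a receptor of Ccl3, Ccl5, Ccl6 and Ccl9, had 12, 18 and 58 counts with knockout and 5, 2 and 7 with overexpression (log2 fold change -2.62, edgeR adjusted p = 0.0209). The knockout mean of Ccr1 was 0.844 CPM, or 0.473 CPM without knockout replicate 3. It lost its call without knockout replicate 3 (0.0653) and without overexpression replicate 1 (0.0538), 2 (0.0827) or 3 (0.0539), in a range from 2.64e-07 to 0.0827. The adjusted p-values of Ccr9 and Ccr10 were 0.618 and 0.741 (edgeR). Ccr6, the receptor of Ccl20, had at most 8 counts in any library and was not tested. Ccr8, the receptor of mouse Ccl8, had 8, 20 and 39 counts with knockout and 0 in each overexpression library. Ccr3, the receptor of Ccl11, had at most 3 counts in any library. Neither Ccr8 nor Ccr3 passed the count filter.

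Atypical receptors bind chemokines without the usual signalling and were all tested, 3 of 5 being lower and 1 higher. Of all tested genes, 18% were called lower and 13.6% higher. Ackr1 and Ackr2 passed the count filter through their knockout libraries alone. Ackr2, a scavenger of inflammatory CC chemokines, had 80, 48 and 46 counts with knockout and was at least 17.1-fold lower with overexpression (adjusted p = 0.000167, edgeR). Ackr1, known from venular endothelium and red cells, had 81, 165 and 234 counts and was at least 46.8-fold lower, though its exons share 361 bases with Cadm3 on the same strand. Ackr3, which binds Cxcl12, had 212 ± 50.1 CPM with knockout and 111 ± 14.1 CPM with overexpression (SD, n = 3 each), and fell by 0.93 on the log2 scale (adjusted p = 0.00871, edgeR). Ackr4, a scavenger of the Ccr7 ligands, rose, from 18, 28 and 11 counts with knockout to 115, 107 and 117 with overexpression (log2 fold change 2.53, adjusted p = 0.00254, edgeR). Its exons share 479 bases with Acad11 on the other strand, and its adjusted p was 0.112 when libraries were scaled to epithelial genes. Ccrl2, which holds chemerin at the cell surface, did not pass (adjusted p = 0.763).

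The knockout libraries differed among themselves in these chemokines. Replicate 1 was lowest for all 9 members. Replicate 2 was highest for Ccl2, Ccl3, Ccl7, Ccl8, Ccl9 and Ccl11, and replicate 3 for Ccl5, Ccl6 and Ccl20. Relative to the mean of the 3 knockout libraries, Ccl3 stood at 0.399, 2.11 and 0.493 in replicates 1, 2 and 3. Ccl5 stood at 0.363, 1.09 and 1.55, so the 2 genes peaked in different libraries.

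**Figure D3:**
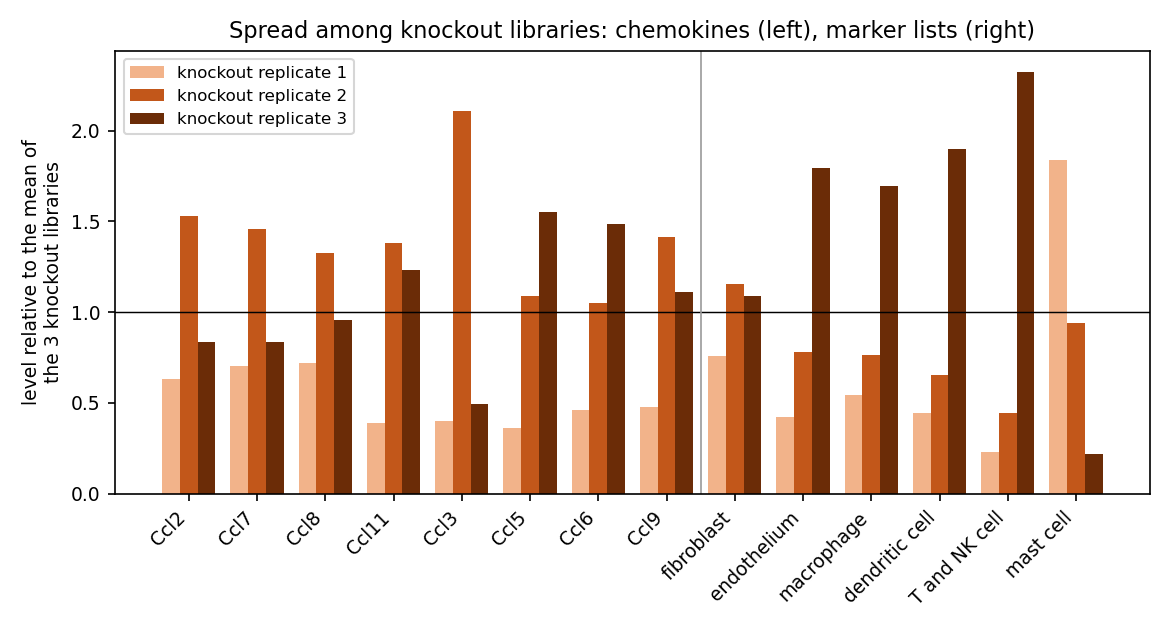
Level in each knockout library relative to the mean of the 3 knockout libraries, for the 8 tested chemokines (CPM) and 6 marker lists (summed CPM). Replicate 3 is highest for the T and NK cell (2.32), dendritic cell (1.90), macrophage (1.69) and endothelium (1.79) lists. Its macrophage value is mostly Ptprc, a pan-leukocyte gene. Replicate 3 is lowest for the mast cell list (0.221), where replicate 1 is highest (1.84). Replicate 2 is highest for Ccl3 (2.11).

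The summed markers of fibroblasts and of T and NK cells were lower with overexpression, as most of the chemokines were. The sums of macrophage, dendritic cell, neutrophil and B cell markers overlapped between the groups. Gene by gene, overexpression was lower without overlap for 7 of 12 macrophage and 5 of 7 dendritic cell markers. The same held for 4 of 8 neutrophil and 1 of 4 B cell markers, against 26.5% of tested genes. Flt3 alone of these markers was higher without overlap, as 24.4% of tested genes were. Not all of these markers passed the count filter, so their counts are a description. All 10 fibroblast markers fell with overexpression, led in level by Col3a1 and Col1a1, the chains of interstitial collagens, and none was at 0 with overexpression. Among the knockout libraries the fibroblast sum stood at 0.758, 1.16 and 1.09 of its mean in replicates 1, 2 and 3, lowest in replicate 1 as were all members. Replicate 1 was also lowest for the endothelium (0.425), macrophage (0.543), dendritic cell (0.446), T and NK cell (0.230) and neutrophil lists. It was highest for the mast cell list (1.84) and not lowest for the B cell and epithelial lists. Of the T and NK cell markers, 9 of 11 tested fell, and the list summed to 16.5 to 166 CPM with knockout and 2.20 to 5.70 CPM with overexpression. Prf1 and Gzma, killer cell genes, were its highest members. Of the 12 T and NK cell genes, 6 had at most 3 counts in each overexpression library, Prf1 among them, so their count is a description. Of all tested genes, 18% were called lower and 13.6% higher, to be read beside the marker counts here and below. The part of these cell types in the chemokine differences was not tested.

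Of the macrophage markers, 4 of 9 tested fell and Cd14 rose, with sums of 40.5 to 126 CPM with knockout and 26.3 to 66.8 CPM with overexpression. Ptprc, the pan-leukocyte gene CD45 and a member of this list, had 363, 654 and 3215 counts with knockout. With overexpression it had 14, 16 and 20 counts. Ptprc made up most of the list's sum in knockout replicate 3, and the smaller part in knockout replicates 1 and 2. The high macrophage sum of knockout replicate 3 is therefore not specific to macrophages. Cd14 made up most of the sum in overexpression replicates 1 and 2, and the smaller part in replicate 3. Of the endothelial markers, 4 of 5 tested fell, with sums of 26.9 to 114 CPM with knockout and 12.3 to 19.5 CPM with overexpression. Tek, the highest in level, did not pass (adjusted p = 0.216, edgeR), and Pecam1 fell by 2.41 on the log2 scale (adjusted p = 0.0162, edgeR). Among dendritic cell markers, Itgax fell and Flt3 rose. The sums were 14.1 to 60.1 CPM with knockout and 11.5 to 17.9 CPM with overexpression. Flt3 made up most of the sum in each overexpression library, at 10.6, 13.95 and 8.59 CPM in replicates 1, 2 and 3. Clec9a and Cd209a were at 0 in every overexpression library, but did not pass the count filter and were not tested.

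Neutrophil markers summed to 4.80 to 9.44 CPM with knockout and 2.68 to 9.93 CPM with overexpression, with overlapping groups. Of 3 tested, Csf3r fell. Ly6g and Cxcr2, the highest in level, did not pass: Ly6g had 2.14 ± 0.256 CPM with knockout and 4.73 ± 3.55 CPM with overexpression (adjusted p = 0.184, edgeR), and Cxcr2 had 1.93 ± 0.649 and 1.16 ± 0.336 CPM (adjusted p = 0.189, edgeR). S100a9 and Retnlg were at 0 in every overexpression library, but did not pass the count filter and were not tested. Mast cell markers summed to 1.51 to 12.5 CPM with knockout and 0.0676 to 0.101 CPM with overexpression, where Cpa3, Mcpt4 and Fcer1a were at 0, and the 1 tested gene, Tpsb2, fell. B cell markers were at 1.42 CPM or less in sum in any library, Ms4a1 did not pass (adjusted p = 0.371, edgeR), and Cd79a, at 3 to 13 counts in each library, was not tested. Of 13 epithelial markers, 9 rose with overexpression, as 13.6% of all tested genes did. Krt5 and Krt14, the highest in level, did not pass (adjusted p = 0.0584 and 0.251, edgeR). The part of these markers in the chemokine differences was not tested either.

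Genes next to the chromosome 11 groups gave mixed values. Upstream of Ccl2, the nearest tested protein-coding gene was Tmem98, 1214 kb away, at -1.31 (log2 fold change, edgeR adjusted p = 0.0107). On the far side, 83.2 kb beyond Ccl1, Tmem132e stood at -5.85 (log2 fold change, edgeR adjusted p = 5.33e-05). Taf15, 19.0 kb from Ccl5, and Wfdc18, 44.3 kb beyond Ccl4, did not pass (log2 fold changes -0.37 and -1.42, adjusted p = 0.211 and 0.330). These 4 neighbours were chosen by position, after the values of the chemokines were seen.

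Genes of similar pattern were sought among 10823 tested genes. These left out all chemokine, receptor and marker genes of the lists used here, genes of low average CPM, Gm and Rik genes, and chromosome 18. The members and markers were therefore not compared with one another. Those nearest to Ccl7, the member with the highest mean CPM, were Wnt2, Il1rl2, Lrrc32, Vstm4 and Olfml1. The measure was the root mean square difference in centred log2 CPM over the 6 libraries, which was 0.32 for Wnt2 and 0.41 for Olfml1. Il1rl2, the interleukin-36 receptor, had 39.3 ± 15.1 CPM with knockout and 0.193 ± 0.131 CPM with overexpression (SD, n = 3 each). Those nearest to Ccl5 were Mill2, Enpp3, Akr1c14, Emb and Ncf1, at differences of 0.28 to 0.37. All of these genes share the 6 libraries and their depth with the chemokines, so likeness is a description of these libraries.

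**Figure D4:**
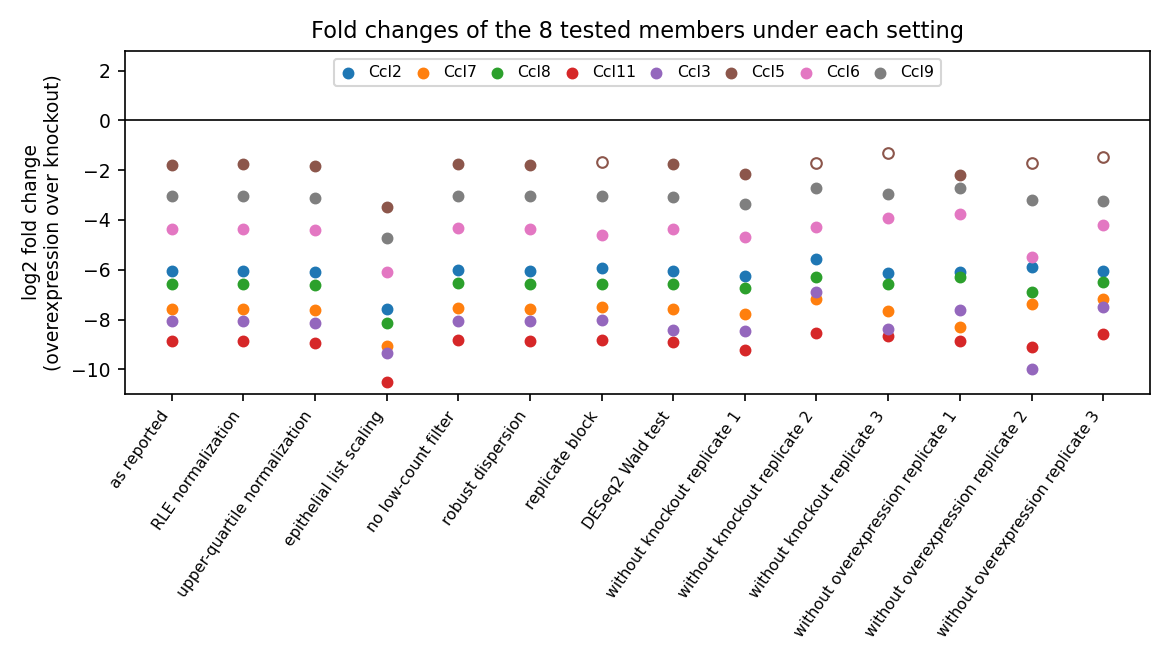
Log2 fold changes (overexpression over knockout) of the 8 tested chemokines as reported and under 13 other settings, with filled points for an adjusted p under 0.05 and open points otherwise. All open points belong to Ccl5, at log2 fold changes between -1.71 and -1.30.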

How the data were processed

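Gene-level read counts of 6 libraries were used as the authors deposited them, as whole numbers and not normalized. The submitters' processing notes name kallisto 0.44.0 and the build mm10, with no role for either, so how estimated counts became whole is not given in the sources used here. RNA was extracted with a microprep kit and libraries made with a low-input kit, per the labels' protocols. The table held 55481 rows, of which 96 named no mouse gene and were not used (at most 2.233e-05% of any library). Of the gene identifiers, 55144 matched GENCODE M21. Genes were kept with edgeR's filterByExpr (minimum count 10, minimum total 15), scaled by TMM and tested with edgeR 4.0.16 in R 4.3.3 (quasi-likelihood test, group as the only term, Benjamini-Hochberg adjustment over all 18504 tested genes, threshold 0.05). The procedure was tested on simulated data. A floor of 3 counts was 0.0758 to 0.101 CPM, and floors cover counting error only.

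Alternatives were other scalings (RLE, upper quartile, epithelial genes), no filter, robust dispersion, a replicate block, DESeq2 1.42.0 and leaving out each library. The members, lists and alternatives were chosen with earlier results of these data known. Named genes were Sox2, all members, every ligand or receptor that passed the filter (1 receptor is not reported here), the 2 highest genes of each marker list, and the 5 genes nearest in pattern to 2 members. Ccl21a, Ccr3, Ccr6, Ccr8, Csf3r and markers at 0, and the chromosome 11 neighbours, were named after their values were seen.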

Additional observations from a re-analysis of the deposited data

Results flagged for a closer look

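The table has a row for mCherry, a fluorescent protein, which no comparison used. It held 8 counts in knockout replicate 3, 1 count in knockout replicate 2 and 0 in the other 4 libraries. The value of 8 is above the 3 counts that a count of 0 allows. Knockout replicate 3 is also the library with the highest Ccl5, Ccl6 and Ccl22. The labels do not say which cells or hosts carried the reporter.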

How the results depend on the processing

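Sox2, Ccl2, Ccl3, Ccl6, Ccl7, Ccl8, Ccl9 and Ccl11 kept their direction and an adjusted p under 0.05 in all 13 alternatives. Ccl20 could be fitted only without the filter. Ccl5 kept its direction but lost its call in 5 alternatives. With the replicate number as a block it stood at -1.67 (log2 fold change, edgeR adjusted p = 0.0886), and leaving out 1 library gave -2.18 to -1.30. The labels number the replicates without saying whether equal numbers mark pairs, and 3 libraries per group are too few to settle it. Same-numbered libraries had correlations of 0.051, 0.022 and -0.040 in their deviations from group means. Not every library correlated best with its own number. The block gave 5593 calls over all genes against 5848 without it, and among members it changed no call other than that of Ccl5. Scaling to epithelial genes raised the calls over all genes to 14656, of which 98.4% were lower against 56.9% before, and moved the median log2 fold change of all genes from -0.02 to -1.60. Relative to that median, the members lay between -8.92 (Ccl11) and -1.87 (Ccl5), Ccl25, Ccr9, Ccr10 and Ccrl2 were called lower there, and Ackr4 lost its call. Removing the filter raised the called other ligands from 4 to 7, as more genes were tested (36483, of which 6648 were called). Leaving out 1 library gave 4230 to 5821 calls over all genes, and calls of higher genes went from 2519 to 1446 (knockout replicate 2 left out) or 1610 (knockout replicate 3 left out). Depth limits the members with few counts in overexpression libraries, among them Ccl3, Ccl8, Ccl11 and Ccl20.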
